A study of Mus musculus with 6 samples.

Results

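The mouse genes Lcn2, Lrg1, Saa3, C4b and Cpn2 were examined in enteroids, cultures grown from crypts of the mouse small intestine, with and without the cytokine IL-22. They are 5 of the 690 genes in the authors' deposited table of genes that differed with IL-22, and they were picked by name from that table with their response already known. Their levels under IL-22 are therefore a description, and no test of that response is given here. The enteroids came from C57BL/6J mice of 6 weeks without necrotizing enterocolitis, although the protocol names mice of 8 weeks or 7 days. All wells were differentiated for 4 days. There were 4 untreated libraries, which were 2 wells from each of 2 mice, and 2 libraries from wells of 1 mouse kept for 24 hours with recombinant mouse IL-22. The dose is unsettled: the sample labels state 2 ng/ml, but the heading of the deposited table states 100 ng. RNA-seq libraries of polyadenylated RNA held 22600000 to 36600000 reads in controls and 32500000 and 29900000 with IL-22. Values are in RPM, the reads that a gene received among each 1000000 of its library.

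Acute-phase proteins are secreted proteins whose blood levels move during inflammation, and the liver is their best-known source. The cytokines that induce them there, above all those of the IL-6 family, signal through the transcription factor STAT3, which also transmits the signal of IL-22 in epithelial cells. Complement is a cascade of secreted proteins that tags microbes for uptake, and its activation releases small peptides, the anaphylatoxins, that attract and activate immune cells. Gut epithelium is in direct contact with bacteria and can itself secrete proteins of both groups.

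Without IL-22 the 5 genes were close to silent. In the 4 control libraries together they had 18 reads among 121900000, and in both IL-22 libraries together 781 reads among 62300000. Their summed level was 0.238 RPM in the control means and 12.4 RPM in the IL-22 means of the authors' deposited table. A higher level in all cells and a larger number of cells that make a transcript cannot be told apart in such bulk libraries. All 5 genes were higher with IL-22, where 38.7% of the table is higher. All 5 were also at least 10-fold higher, as 5.36% of the table is. The median ratio of the 5 was 55.0 in the authors' deposited table, and the median over its 267 higher genes was 3.15. Both figures describe a set that was chosen for its response. Every listed gene also has a minimum of mean reads in its higher group. Genes so close to silent in controls can therefore be listed only with large ratios.

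The reads of single libraries were recovered from the deposited group means, standard errors (SEM) and read means, because 1 read has a different worth in RPM in each library. The libraries are named by depth, since the table does not tie them to wells or mice. Libraries in which a gene had no read were given the value of 1 read, which is 0.0273 to 0.0442 RPM in the control libraries. This value is the lowest that a control library can show.

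**Figure D1:**
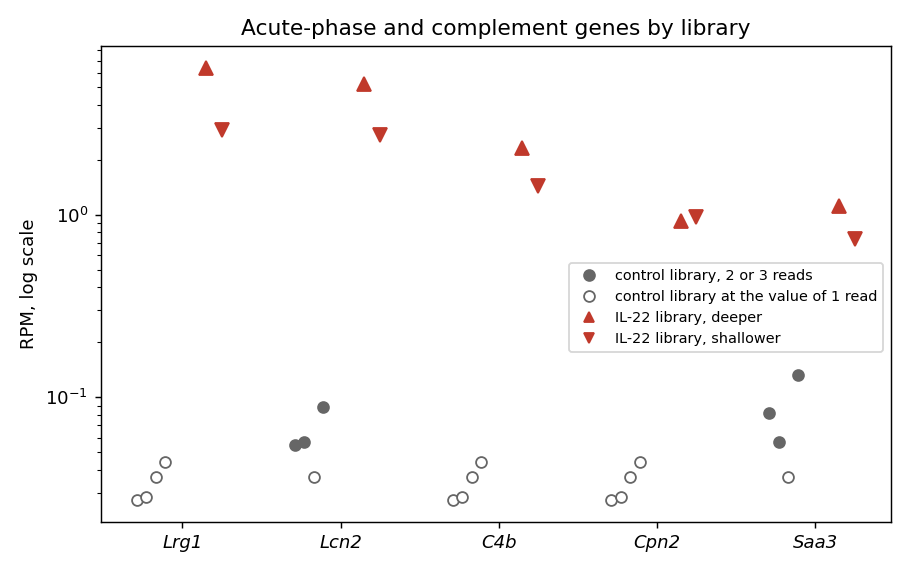
Level of each gene in each of the 6 libraries, in RPM on a log axis. Grey circles are the 4 control libraries from the deepest (left) to the shallowest (right), open where the library stood at the value of 1 read, and triangles are the IL-22 libraries. For each gene both IL-22 libraries, at 0.736 to 6.41 RPM, lie above all control libraries, at 0.0273 to 0.132 RPM.

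Lcn2 (Entrez 16819, chromosome 2) encodes lipocalin 2, a secreted protein that binds iron-loaded bacterial siderophores and so withholds iron from bacteria. The control libraries held 2, 2, 0 and 2 reads, from the deepest to the shallowest, or 0.0547, 0.0567, 0.0365 and 0.0883 RPM. The IL-22 libraries held 169 reads in the deeper and 82 in the shallower, or 5.21 and 2.74 RPM. A trace of Lcn2 was thus read in 3 of the 4 control libraries, and the groups were far apart. In the authors' deposited table the means were 0.0590 ± 0.0108 RPM (SEM, n = 4) and 3.97 ± 1.23 RPM (SEM, n = 2), a ratio of 67.3.

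Lrg1 (Entrez 76905, chromosome 17) encodes leucine-rich alpha-2-glycoprotein, a secreted protein that alters TGF-beta signalling in endothelial cells. All control libraries together held 1 read, and which library held it cannot be recovered. The deeper IL-22 library held 208 reads and the shallower 87, or 6.41 and 2.91 RPM. Lrg1 had the highest level of the 5 genes in RPM in both IL-22 libraries. The authors' deposited table gives 0.0341 ± 0.00393 RPM (SEM, n = 4) in controls and 4.66 ± 1.75 RPM (SEM, n = 2) with IL-22, a ratio of 137. The ratio was 85.4 without the deeper IL-22 library.

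Saa3 (Entrez 20210, chromosome 7) encodes a serum amyloid A protein that in mice is made largely outside the liver. It was the most readable of the 5 genes without IL-22, with 3, 2, 1 and 3 reads in the control libraries, or 0.0820, 0.0567, 0.0365 and 0.132 RPM. With IL-22 it had 36 and 22 reads, or 1.11 and 0.736 RPM. Reads of Saa3 were found in all 4 control libraries, and both IL-22 libraries still lay above them. The authors' deposited means were 0.0769 ± 0.0207 RPM (SEM, n = 4) and 0.923 ± 0.186 RPM (SEM, n = 2), a ratio of 12, the smallest of the 5.

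C4b (Entrez 12268, chromosome 17) encodes complement component C4, which is cut early in the classical and lectin pathways and becomes part of the enzyme that cleaves C3. A total of 2 control reads lay in 2 different libraries, each with 1 read, since the control mean stood at the value of 1 read per library. The IL-22 libraries held 75 and 43 reads, or 2.31 and 1.44 RPM. The means in the authors' deposited table were 0.0341 ± 0.00393 RPM (SEM, n = 4) and 1.87 ± 0.435 RPM (SEM, n = 2), a ratio of 55.0. Of the 31-base words of its main transcript in GENCODE M21, 48.8% also occur in C4a, a near-identical neighbour on chromosome 17, and reads of this pair cannot be told apart with certainty.

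Cpn2 (Entrez 71756, chromosome 16) encodes the regulatory subunit of carboxypeptidase N, a plasma enzyme that trims anaphylatoxins and kinins. It had 0 reads in all 4 control libraries, which allows a level of up to 0.0246 RPM over the group (3 reads). With IL-22 it had 30 reads in the deeper and 29 in the shallower library, or 0.924 and 0.971 RPM. It was the one gene of the 5 that was not higher in the deeper IL-22 library. In the authors' deposited table Cpn2 is at 0.0341 ± 0.00393 RPM (SEM, n = 4) and 0.947 ± 0.0233 RPM (SEM, n = 2), a ratio of 27.8. Against that allowance of 3 reads over the group, its 59 reads gave a ratio of 38.5, without their own counting error. The lower end of the exact 95% counting interval, which also takes in the counting error of the 59 reads, was 30.3-fold.

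For Lrg1, C4b and Cpn2 the deposited control mean is the value of 1 read in every library, and its SEM reflects the different depths of the libraries and no spread of expression. These are 3 of the 8 listed genes at that value. In 690 of 690 listed genes (100%) the means and SEMs allow no overlap of the groups, so the separation seen in these 5 genes is shared by the whole table. With the authors' p-values adjusted over the 21951 protein-coding genes of GENCODE M21, 1 of the 5 genes, Cpn2, stayed under 0.05, where 13.6% of the table is higher and does so. For Cpn2 that value rests on a control SEM set by library depth alone and on treated wells of 1 mouse. It is therefore neither a measure of the spread between mice nor a test of the response. Counted as reads per depth, with an empty library at 0, the ratio for Lrg1 was 577 with a 95% counting interval of 103 to 22857. That of C4b was 115 with an interval of 31.2 to 964. The interval ran from 37.1 to 225 for Lcn2 around a count ratio of 81.8, and from 6.2 to 28.9 for Saa3 around 12.6. The upper ends for Lrg1 and C4b are hardly bounded. Since the genes were picked for their response, lower ends above 1 are no test of it. These intervals (exact conditional binomial) cover counting error alone and leave out differences between wells and between mice. They also take reads as independent molecules, which PCR reads are not, and can therefore be too narrow.

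**Figure D2:**
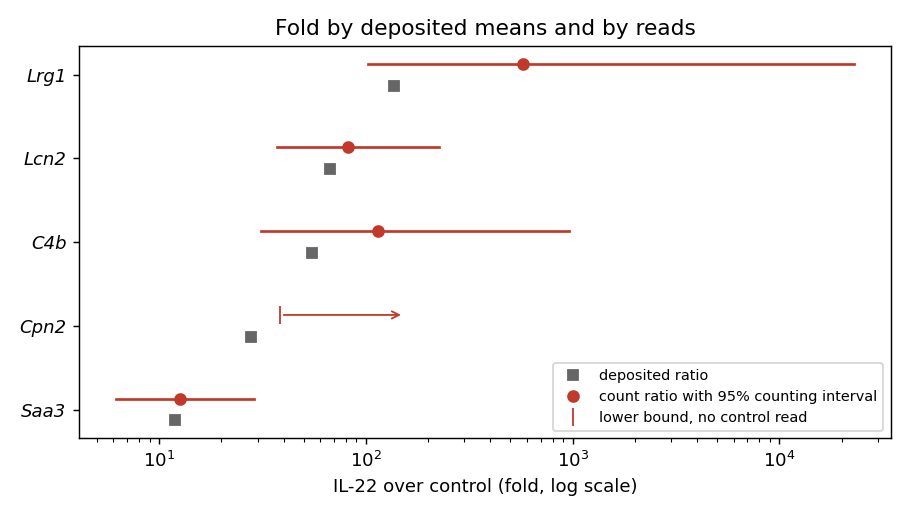
Ratio of IL-22 over control for each gene on a log axis. Squares are the deposited ratios and circles the count ratios with their 95% counting intervals. The arrow for Cpn2 starts at 38.5, its ratio against an allowance of 3 control reads, without the counting error of its IL-22 reads. The deposited ratio of Lrg1 (137) lies below its count ratio (577), while for Saa3 both are close (12 and 12.6).

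Per length of the main GENCODE M21 transcript, the order of the levels with IL-22 was Lcn2, Lrg1, Saa3, C4b and Cpn2. In the deeper and the shallower IL-22 library, Lcn2 stood at 5.69 and 3.0 RPM per kilobase and Lrg1 at 4.55 and 2.07. These ranges overlap, so the order of this pair is not settled. Saa3, with a short transcript of 555 bases, stood at 2.00 and 1.33 RPM per kilobase. C4b stood at 0.429 and 0.268 RPM per kilobase on a transcript of 5379 bases, and Cpn2 at 0.203 and 0.213 on one of 4550. From Lrg1 downwards no neighbours in this order overlapped between libraries. With the longest Saa3 transcript of 2200 bases in place of the main one, the mean level of Saa3 was 0.419 RPM per kilobase, within the range of C4b.

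All 5 genes remained low in abundance with IL-22. Among the 267 higher genes, whose median IL-22 mean was 8.73 RPM, Lrg1 ranked 161 and Lcn2 170 by IL-22 level. C4b ranked 203, Cpn2 238 and Saa3 242. By the ratio, Lrg1 ranked 5, Lcn2 7, C4b 8, Cpn2 13 and Saa3 29 of the same genes. Large ratios at low levels went with control levels near 0: 18 listed genes had fewer than 3 mean control reads per library, the 5 among them. All 18 were higher with IL-22. The selection of the table forces this, because every listed gene has a minimum of mean reads in its higher group. A gene with so few control reads can be listed only as higher, and only with a large ratio. The link between low control levels and large ratios is therefore no finding about these genes.

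**Figure D3:**
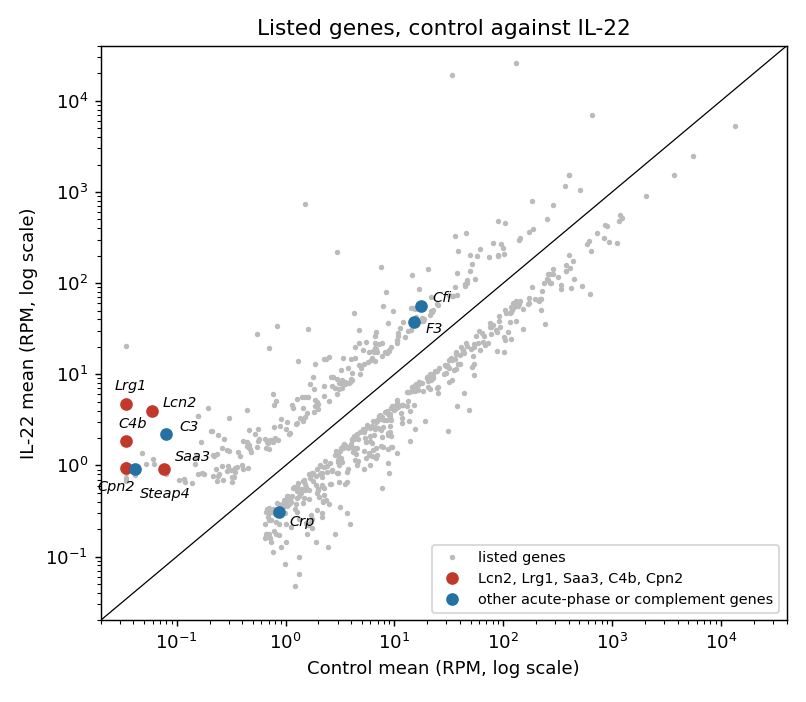
Control mean against IL-22 mean of the 690 listed genes, both in RPM on log axes, with the line of equal levels. The 5 genes (red) lie at the far left, at control means of 0.0341 to 0.0769 RPM. C3 and Steap4 lie beside them, while Cfi and F3 start from control levels over 15 RPM and Crp lies below the line.

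The IL-22 libraries came from wells of the same mouse. In 4 of the 5 genes the level was higher in the deeper library. The same held for 120 of the 239 higher genes whose IL-22 values could be assigned to single libraries. The level in the deeper library was 2.20 times that in the shallower for Lrg1, with a 95% counting interval of 1.71 to 2.86. The ratio was 1.90 for Lcn2, with an interval of 1.45 to 2.5. C4b had a ratio of 1.61 with an interval of 1.09 to 2.39, and Saa3 one of 1.51 with an interval of 0.862 to 2.69. Cpn2 had a ratio of 0.952 with an interval of 0.552 to 1.64, which does not overlap that of Lrg1. By these intervals the wells differed for Lrg1, Lcn2 and C4b, and not detectably at this depth for Saa3 and Cpn2. The intervals take reads as independent, which PCR reads are not, and that of C4b starts close to 1.

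Both IL-22 values could be assigned to 1 library each for 239 of the higher genes. Over these the median ratio of the deeper to the shallower library was 1.00, with quartiles of 0.870 and 1.23. Lrg1 ranked 1 and Lcn2 ranked 2 of the 239 by this ratio. C4b ranked 12, Saa3 23 and Cpn2 132. The deposited SEMs of Lrg1 and Lcn2 are large for this reason. The selection of the table bears on these ranks, since each listed gene has a deposited p-value of at most 0.0239. A gene whose IL-22 libraries differ widely can reach such a p-value only with a large ratio of IL-22 over control. The highest ranks are therefore partly set by this selection, and the median of 1.00 comes from the same selected genes. Whether the wells differed in cells, in exposure to IL-22 or in handling was not tested.

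**Figure D4:**
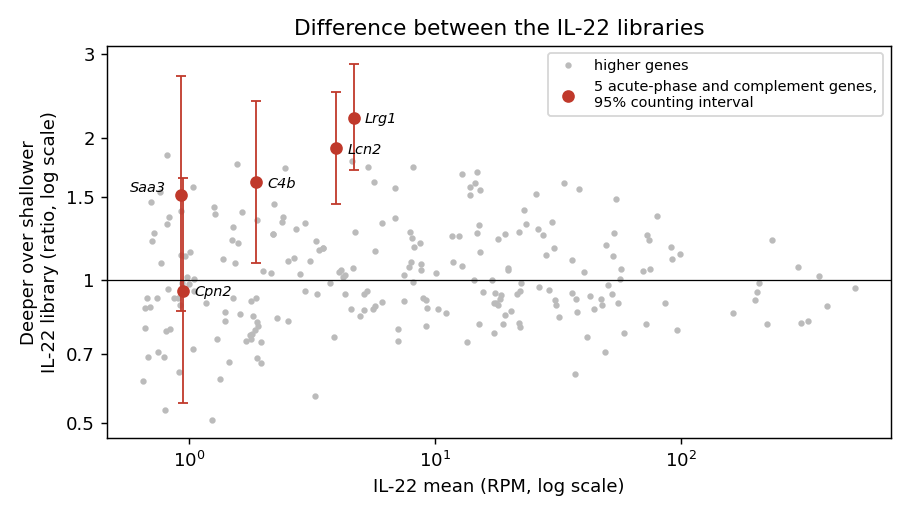
Ratio of the deeper to the shallower IL-22 library against the IL-22 mean in RPM, both on log axes, for 239 higher genes (grey), with the 5 genes in red and bars for the 95% counting interval. Lrg1 (2.20) and Lcn2 (1.90) stand at the top of the plot, and Cpn2 (0.952) lies at the line of equal levels.

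The genes with the most similar pattern were found as the listed genes nearest in log2 control mean and log2 IL-22 mean, over the 2 conditions. Lcn2 and Lrg1 were nearest to each other, at a distance of 0.83. For both of them the other genes among the nearest 3 were C4b and C3, which encodes the central component of complement. Saa3 lay nearest to Penk (0.20), which encodes the opioid peptide precursor proenkephalin, then to the oxidase gene Duox1 (0.36) and to Efcab3 (0.48). The nearest to C4b were the cell-surface mucin gene Muc1 (0.66), Cyp4a12a (0.86) and Cpn2 (0.98). Those nearest to Cpn2 were Cyp4a12a (0.13), Trim10 (0.19) and Steap4 (0.27). Lrg1, C4b, Cpn2, Cyp4a12a and Trim10 share a control mean at the value of 1 read. Distances among these genes therefore reflect the IL-22 means alone and no measured likeness in controls.

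Other complement genes were examined through a list of 47 components and regulators, of which 2 were in the authors' table, both higher, and 45 were not. Of all 21900 protein-coding genes in RefSeq (GRCm38.p6), 2.95% were listed and 1.13% were listed as higher, and the count of each list below is to be read beside these shares. C3 had 3, 3, 3 and 1 reads in the control libraries and 79 and 58 with IL-22. Its means in the authors' deposited table were 0.0802 ± 0.0135 RPM (SEM, n = 4) and 2.19 ± 0.246 RPM (SEM, n = 2), a ratio of 27.3. C3 was therefore read in all 4 control libraries, with 10 control reads in all against 2 for C4b, and both genes were listed as higher. Cfi, which encodes the protease that inactivates the C3 and C4 fragments, was well expressed without IL-22, at 17.7 ± 1.72 RPM (SEM, n = 4), and stood at 56.5 ± 0.203 RPM (SEM, n = 2) with it in the authors' deposited table. A gene absent from the table may still have changed, and levels of unlisted genes were not analysed here.

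Of 36 other acute-phase genes, 2 were listed as higher, 1 as lower and 33 were not listed. Steap4, which encodes a metal-reducing membrane protein, had 2 reads in 1 control library and 0 in the other 3, and 28 and 29 reads with IL-22. The ratio in the authors' deposited table was 22.4. F3, which encodes tissue factor, the starter of blood clotting, had a ratio of 2.43 there, and its level was lower in the deeper IL-22 library (28.7 RPM) than in the shallower (45.2 RPM). Crp, the gene of C-reactive protein, went the other way, from 0.868 ± 0.0947 RPM (SEM, n = 4) to 0.309 ± 0.0930 RPM (SEM, n = 2) in the authors' deposited table. The relatives Saa1 and Saa2 of Saa3 were among the genes not listed, and 94.3% of the words of the main Saa3 transcript occur in no other gene.

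Of 13 genes of the partners of carboxypeptidase N and the kinin system, 2 were listed and both were lower, while Cpn1, which encodes the catalytic subunit that Cpn2 stabilises, was not listed. In the authors' deposited table Cpm, which encodes the membrane-bound carboxypeptidase M, was at 11.8 ± 0.286 RPM (SEM, n = 4) in controls and 2.95 ± 0.0379 RPM (SEM, n = 2) with IL-22. Mme, which encodes the peptide-degrading enzyme neprilysin, fell there from 446 ± 41.4 to 110 ± 11.9 RPM. Around Lcn2, 2 of 16 genes of its partners and of iron handling were listed. Slc40a1, the gene of the iron exporter ferroportin, had a ratio of 2.78 in the authors' deposited table, and Bdh2, an enzyme gene linked to a mammalian siderophore, stood 7.33-fold lower.

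In the signalling list of IL-22 and IL-6 family receptors and STAT factors, 3 of 22 genes were listed and all 3 were higher, where 38.7% of the table is higher. In the authors' deposited table the ratio was 2.54 for Stat3, 9.64 for its feedback inhibitor gene Socs3 and 3.54 for Bcl3, which encodes a nuclear partner of NF-kappaB. Of 16 genes of C/EBP and NF-kappaB factors, which bind many acute-phase promoters in the liver, only Cebpd was listed, with a ratio of 3.37 in the authors' deposited table. Between the IL-22 libraries the ratio of the deeper to the shallower was 1.55 for Bcl3, 1.37 for Socs3, 1.17 for Stat3 and 0.803 for Cebpd.

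Promoter windows of 250 bases before to 50 bases after the transcription start were available from RefSeq (GRCm38.p6) for 4 of the 5 genes, all but C4b. Both strands were searched for TTCNNNGAA, the STAT pattern, for its stricter form TTCCNGGAA, which is contained in it, for TTGCNNAA, a C/EBP pattern, and for the NF-kappaB consensus. Cpn2 held TTCCGGGAA starting 79 bases before the transcription start, a match to both STAT patterns. Of 32851 promoter windows, 8.30% hold the STAT pattern and 1.15% its stricter form. Lcn2, Saa3 and Cpn2 each held a C/EBP match, which 10.8% of all windows do. None of the 4 windows held the NF-kappaB consensus, found in 8.46% of all, and the Lrg1 window held no match to any of the patterns. Any role of the matches in the response to IL-22 was not tested. Only the windows of Lcn2, Saa3 and Cpn2, which held matches, are shown. They are printed as the coding strand, in the direction of transcription, with the matches in capitals. The windows are chr2:32387690-32387989 for Lcn2, chr7:46715627-46715926 for Saa3 and chr16:30267483-30267782 for Cpn2, all on the minus strand.
Lcn2: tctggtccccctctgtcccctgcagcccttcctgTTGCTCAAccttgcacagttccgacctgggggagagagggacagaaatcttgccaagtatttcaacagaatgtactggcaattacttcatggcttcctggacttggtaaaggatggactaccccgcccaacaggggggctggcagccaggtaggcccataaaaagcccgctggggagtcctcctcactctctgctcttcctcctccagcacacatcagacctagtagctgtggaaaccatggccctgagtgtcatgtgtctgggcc
Saa3: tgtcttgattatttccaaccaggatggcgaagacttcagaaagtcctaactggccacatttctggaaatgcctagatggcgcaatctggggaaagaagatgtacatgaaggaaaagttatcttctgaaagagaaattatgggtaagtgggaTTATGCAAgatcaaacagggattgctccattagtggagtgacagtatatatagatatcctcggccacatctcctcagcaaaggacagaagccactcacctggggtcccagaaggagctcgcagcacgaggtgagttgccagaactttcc
Cpn2: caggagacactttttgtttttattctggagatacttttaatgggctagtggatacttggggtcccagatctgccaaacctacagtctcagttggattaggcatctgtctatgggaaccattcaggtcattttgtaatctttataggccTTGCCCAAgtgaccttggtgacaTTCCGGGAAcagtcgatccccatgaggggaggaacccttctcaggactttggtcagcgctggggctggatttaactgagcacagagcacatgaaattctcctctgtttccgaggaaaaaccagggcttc
Windows of 2 other acute-phase or complement genes were searched in the same way. The Steap4 window, on chromosome 5, held TTCCCGGAA at 116 bases before the start, a C/EBP match and 2 matches to the NF-kappaB consensus. The C3 window held a C/EBP match and none to the other patterns. A match in these letters is a description and does not show binding.

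Transcripts of other cell types were sought through marker lists. No gene of the neutrophil, fibroblast and endothelial lists (24 markers in all) was listed. As background, neutrophils store lipocalin 2 and endothelial cells make LRG1. Outside the list of 6 endothelial markers, 4 genes known from endothelium and chosen after their values were seen were higher in the authors' deposited table. Ptprb, a receptor phosphatase gene, went from 1.16 ± 0.0447 to 4.31 ± 0.0615 RPM, and Ecscr, a cell-surface gene, from 0.441 ± 0.0747 to 1.64 ± 0.269 RPM (SEM, n = 4 and 2). Nos3, the gene of endothelial nitric oxide synthase, went from 0.385 ± 0.0374 to 1.26 ± 0.220 RPM, and Rasip1, a gene of vessel formation, from 0.157 ± 0.00810 to 0.813 ± 0.111 RPM. Angpt2 and Gpr116, also known from endothelium, went the other way, from 11.8 to 3.34 RPM and from 1.79 to 0.821 RPM. Genes picked in this way do not stand for endothelial genes as a whole. Of 9 macrophage markers, Mrc1 was listed, in the authors' deposited table at 1.00 ± 0.178 RPM (SEM, n = 4) in controls and 2.53 ± 0.119 RPM (SEM, n = 2) with IL-22. Of 10 hepatocyte markers, 2 were listed and both were lower. In the authors' deposited table Alb stood 2.86-fold and Ttr 4.37-fold lower, the opposite direction to the 5 genes. Of 15 markers of intestinal epithelium, 4 were listed and all 4 were lower in the authors' deposited table. Lct, the lactase gene, stood 13.1-fold lower, and its level under IL-22 was 2.39 ± 0.0191 RPM (SEM, n = 2). Fabp2, a fatty acid binding protein gene, was at 841 ± 48.5 and 310 ± 8.74 RPM, and Alpi, which encodes intestinal alkaline phosphatase, and Sis, which encodes sucrase-isomaltase, stood 2.26-fold and 2.24-fold lower. The part of these cell types in the result was not tested, and levels of unlisted markers were not analysed here.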

How the data were processed

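RNA-seq was made of 4 untreated and 2 IL-22 libraries. Per the submitters' processing notes, BWA 0.5.9 and Picard 1.58 were used, while the sources used here name no build, annotation, counting program or use of strand. The authors' deposited table holds, for 690 genes they selected, group means and SEMs in RPM (unit inferred from the values), mean raw reads, a ratio of means and p-values with Benjamini-Hochberg adjustment over the listed genes. Each listed gene has a deposited p-value of at most 0.0239 and at least 20.0 mean reads in its higher group. No listed gene changed less than 2-fold, so genes with smaller changes are absent.

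With Python 3.11.15, numpy 2.4.6 and scipy 1.17.1, depths were solved from 18 rows with few control reads, all 18 reproduced. In 593 of 593 genes with under 2000 mean IL-22 reads, both IL-22 values came within 0.01 of a whole read. The recovery was tested on simulated data. Wells of a mouse are technical replicates per the labels. With 1 treated mouse, the IL-22 errors are between wells, while the control errors mix wells and 2 mice.

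The members, 13 gene lists and alternatives were chosen with earlier results of these data known. Named genes are the members, every listed gene of a list, and the 3 nearest genes per member, leaving out gene models; the result of one list is not reported here. List genes were matched by Entrez identifier, so that Sis, listed under an older symbol, was counted.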

Additional observations from a re-analysis of the deposited data

How the results depend on the processing

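The size of the 5 ratios rests on the treatment of control values near 0. They stayed above 1 in every alternative run, but this was fixed in advance and shows no robustness. The same amount added to both means keeps the direction, and groups that do not overlap keep it when a library is left out. With 0.1, 1 and 5 RPM added to both means, the ratio was 25.6, 4.70 and 1.77 for Lcn2, 35.5, 5.47 and 1.92 for Lrg1, 14.7, 2.78 and 1.37 for C4b, and 7.81, 1.88 and 1.18 for Cpn2. For Saa3 it was 5.78, 1.79 and 1.17. The count ratio was 577 for Lrg1 and 115 for C4b, because an empty library then counts as 0. Cpn2, with no control read, stood at 38.5 against an allowance of 3 reads. Leaving out each library in turn gave 46.5 to 88.2 for Lcn2, 85.4 to 188 for Lrg1, 9.57 to 15.8 for Saa3, 42.2 to 67.8 for C4b and 26.1 to 30.8 for Cpn2. Geometric means moved no ratio by more than its spread between libraries. The 267 higher genes became 91 at 4-fold, 168 at 2-fold after adding 1 RPM and 94 after adjustment over 21951 protein-coding genes of GENCODE M21 in all, unlisted genes at the largest possible p. With 1 IL-22 library left out, 244 and 248 stayed at least 2-fold higher. In the adjustment over protein-coding genes Cpn2 alone of the 5 stayed under 0.05, with a control SEM set by library depth alone. No paired analysis was possible because only means of each group were deposited, which carry no mouse or well. Depth limits all 5 genes, with 0 to 9 control reads each.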

Other observations

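Among the higher genes with IL-22 values assigned to single libraries, those that followed Lrg1 and Lcn2 in the ratio of the deeper to the shallower IL-22 library were Penk (1.84), the kinase gene Jak3 (1.78), Chrnb4 (1.76), Capg (1.74), Tha1 (1.74) and Gadd45g (1.72). They were named after their values were seen. Over the 398 lower genes with assigned values the median of the same ratio was 1.08. In the annotation terms of the authors' deposited table, the acute-phase response term is carried by 7 listed genes, 4 higher and 3 lower, with Saa3 the only one of the 5 genes. The complement activation term is carried by 4 listed genes, which are C3, C4b and Cfi (higher) and Crp (lower).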
